A study of Mus musculus with 10 samples.

Results

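Bap1 was targeted by genome editing in the hepatocytes of mice that received no liver toxin. Bulk RNA from the right lobe of the liver was sequenced. The comparison rested on 4 of the 10 livers of the series, 2 sgBap1-Veh and 2 NTC-Veh. They are labelled as replicates without a mouse number, so that p-values measure the spread between these samples. All came from female LSL-Cas9 mice of 16 to 20 weeks, whose Cas9 gene is silenced by a stop cassette until Cre recombinase removes it. Each mouse received 1e+12 particles of an AAV8 vector in the tail vein, carrying a guide RNA under the U6 promoter and Cre under TBG, a promoter active in hepatocytes. The guide was either the non-targeting control (NTC) or one against Bap1 (sgBap1), so that the control mice also carried the virus, Cre and active Cas9. At 10 days the mice were injected with olive oil, the vehicle (Veh), and the livers were taken 48 h later. The other 6 livers, 3 NTC-CCl4 and 3 sgBap1-CCl4, came from mice given carbon tetrachloride (CCl4) in the same oil, and they served to estimate the spread between livers and as a second, separate comparison of the guides.

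BAP1 is a nuclear deubiquitinase that joins ASXL proteins in the Polycomb repressive deubiquitinase complex, which removes ubiquitin from histone H2A and so opposes one of the marks that Polycomb proteins place on silent genes. It also binds the transcriptional regulator HCFC1 and FOXK proteins, and it is a tumour suppressor in several tissues, the bile duct among them. Hepatocytes make up most of the liver mass, while Kupffer cells, lymphocytes, stellate cells and endothelium contribute the remaining RNA of a bulk sample. Because the vector drives Cre from a hepatocyte promoter, those other cells were not the intended site of the edit.

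Levels are given in CPM, estimated counts scaled by library size and a TMM factor so that livers of different depth can be compared. Differences are log2 fold changes of sgBap1-Veh over NTC-Veh with their standard error (SE) from edgeR's quasi-likelihood test, and a gene was called at a Benjamini-Hochberg adjusted p under 0.05 over the 17015 genes tested. The vehicle libraries held 33047900 to 46743900 estimated counts, so that 3 counts correspond to at most 0.112 CPM. Albumin (Alb) alone took 84217 to 116166 CPM, and the summed level of 8 hepatocyte markers was 118707 to 164325 CPM in the vehicle livers, as the liver label has it. By contrast, 5 of the 7 adipocyte markers listed were too low to be tested. One library stood apart, sgBap1-CCl4 replicate 2, with an adipocyte marker sum of 537 CPM against 9.31 to 35 in the other 9 livers. It is not part of the vehicle comparison, but it enters the shared estimate of the spread.

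Bap1, the targeted gene (ENSMUSG00000021901.10), measured 34.8 and 34.8 CPM in the NTC-Veh livers and 17.5 and 19.5 CPM in the sgBap1-Veh livers. The groups did not overlap, and Bap1 fell by 0.91 on the log2 scale (SE 0.12, adjusted p = 0.0208). In the CCl4 livers it measured 29.5 to 31.5 CPM with NTC and 17.0 to 21.8 CPM with sgBap1, a log2 fold change of -0.65 (adjusted p = 0.0295), and the difference between both effects did not pass (edgeR's interaction test, adjusted p = 0.616). The read counts give the level of the transcript and do not measure the edit itself. The paper reports partial editing at the target site, by Sanger sequencing of liver tissue from the bulk RNA-seq experiment. Among the 10 tested genes of the BAP1 complex and its partners, Bap1 alone was called, and the largest differences among the others were those of Mbd6, -0.17, Hcfc1, -0.16, and Kdm1b, -0.13. The 31 subunits of Polycomb complexes 1 and 2 held no called gene, with 14 above 0, 17 below and a median of -0.01. Of the Hox genes, classic targets of Polycomb silencing, 12 of 39 were expressed enough to be tested and none was called. Of these 8 were above 0 and 4 below, with a median of 0.43 that ran from 0.16 to 0.43 with 1 liver left out.

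Over all tested genes, 69 (0.406%) differed between sgBap1-Veh and NTC-Veh livers. They split into 47 higher (0.276%) and 22 lower (0.129%) genes, with 65 protein-coding genes among them. The smallest adjusted p was 0.0120, that of Sort1, and 264 genes lay under an adjusted p of 0.1. At an unadjusted p under 0.05 there were 2100 genes (12.3%), 1207 of them higher (7.09%), while the groups did not overlap for 6962 (40.9%), a share that says little with 2 livers a side. The median over all genes was 0.02, near 0 as TMM scaling sets it. The calls lean on single livers. They numbered 0 without NTC-Veh replicate 2 (1536 genes then had an unadjusted p under 0.05), 1 without sgBap1-Veh replicate 1, 8 without sgBap1-Veh replicate 2, 34 without NTC-Veh replicate 1, and 150 (0.892%) without sgBap1-CCl4 replicate 2, while DESeq2's Wald test on the same counts called 562 (3.30%).

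**Figure D1:**
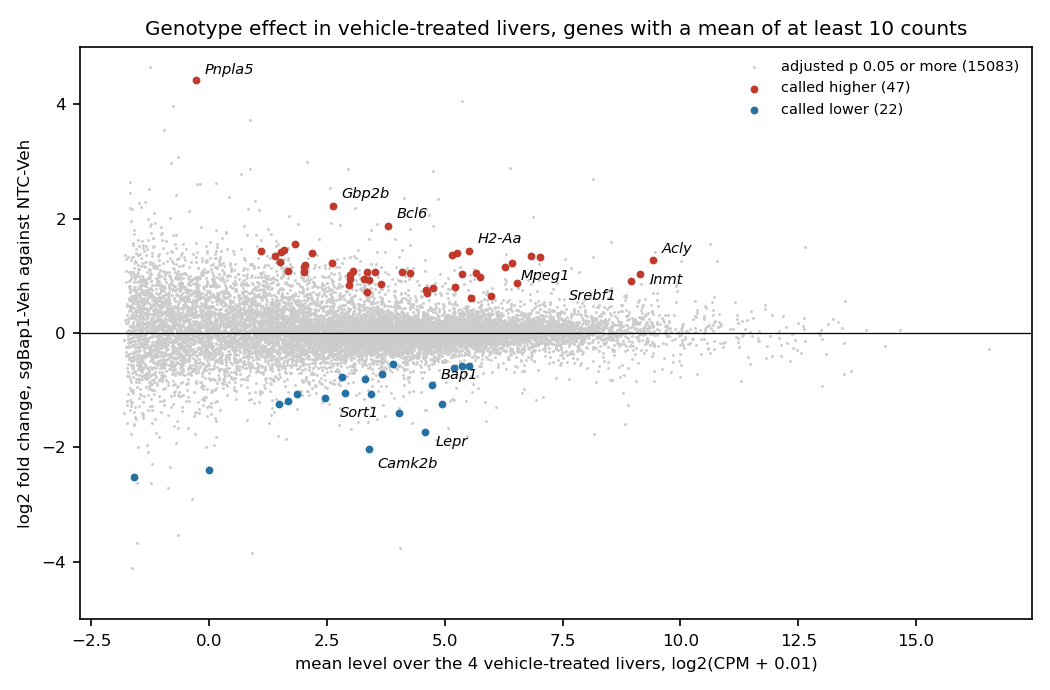
Log2 fold change of sgBap1-Veh over NTC-Veh (y axis) against mean level over the 4 vehicle livers in CPM (x axis, log scale) for the 15152 tested genes averaging 10 counts or more, with called genes in colour. More of the called genes lie above (47) than below (22) the line at 0, and 17 genes lie outside the plotted range of -5 to 5.

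Besides Bap1, the clearest fall was that of Sort1, which encodes sortilin, a receptor that sorts proteins between the Golgi and lysosomes and influences lipoprotein secretion. It measured 24.3 and 22.7 CPM in the NTC-Veh livers and 8.29 and 9.58 CPM in the sgBap1-Veh livers, a difference of -1.40 (SE 0.13, adjusted p = 0.0120). Another 4 of the lower genes act in sorting, the Golgi or autophagy and are described beside it, a grouping made after their values were seen and among the lower genes alone. Casc4, a Golgi membrane protein, went from 8.03 and 6.96 to 3.15 and 3.67 CPM. Wipi1, which binds phosphoinositides at forming autophagosomes, fell by 0.72 on the log2 scale, and both Cpd, a carboxypeptidase of the trans-Golgi, and Man2a2, a mannosidase that trims N-glycans, fell by 0.58.

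Receptors and signalling enzymes made up another 5 of the lower genes. Camk2b, a calcium/calmodulin-dependent kinase, measured 17.4 and 16 CPM with NTC and 2.96 and 5.31 CPM with sgBap1. This was the largest fall (-2.03, SE 0.25, adjusted p = 0.0208) among called genes averaging 100 counts or more in the vehicle livers, and none of the other Camk2 kinases tested was called, with differences of -0.19 to 0.53. Lepr, the leptin receptor, measured 31.7 and 42.1 CPM with NTC and 10.3 and 12 CPM with sgBap1 (-1.73, SE 0.22, adjusted p = 0.0208). No other of the 8 tested genes of leptin receptor signalling was called, Socs3 being at -0.59 and Leprotl1 at -0.36. Avpr1a, the vasopressin receptor through which the hormone raises calcium in hepatocytes, went from 46.1 and 40.1 to 18.4 and 18.1 CPM (-1.24, SE 0.14, adjusted p = 0.0191). Pde4b, which degrades cyclic AMP, went from 44.4 and 44.5 to 28.7 and 29.5 CPM (-0.61), and Rtn4rl1, a Nogo receptor relative, fell by 1.05 on the log2 scale.

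The other lower genes were of mixed kinds. Ints10, a subunit of the Integrator complex that processes small nuclear RNAs, measured 13.3 and 15.8 CPM with NTC and 5.68 and 8.31 CPM with sgBap1. Tmc7, Fam110a, Lrfn3, 1110008P14Rik, Dnajc18 and Spryd3 fell by 1.06, 1.24, 1.19, 0.81, 0.77 and 0.53 on the log2 scale. A further 4 genes had a mean under 50 counts in the vehicle livers and are given as counts. Ces4a, a carboxylesterase, had 62 and 59 counts with NTC and 10 and 10 with sgBap1, and the lincRNA Gm31717 had 20 and 20 against 3 and 3. Gm10335, a processed pseudogene, had 102 and 60 counts with NTC and none with sgBap1, at least 23-fold lower against a floor of 3 counts per library, but 88.1% of its stretches of 50 bases also occur in Rpl23a and other genes. Gm2004, with 30 and 44 counts against none (at least 10.5-fold lower), shares 100% of its stretches, so that the assignment of reads to either gene is uncertain. Both had reads in every sgBap1-CCl4 liver, Gm10335 at 2.49 to 3.78 CPM and Gm2004 at 0.829 to 1.58 CPM. The NTC-CCl4 livers held 1.24 to 3.08 and 0.938 to 1.22 CPM.

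**Figure D2:**
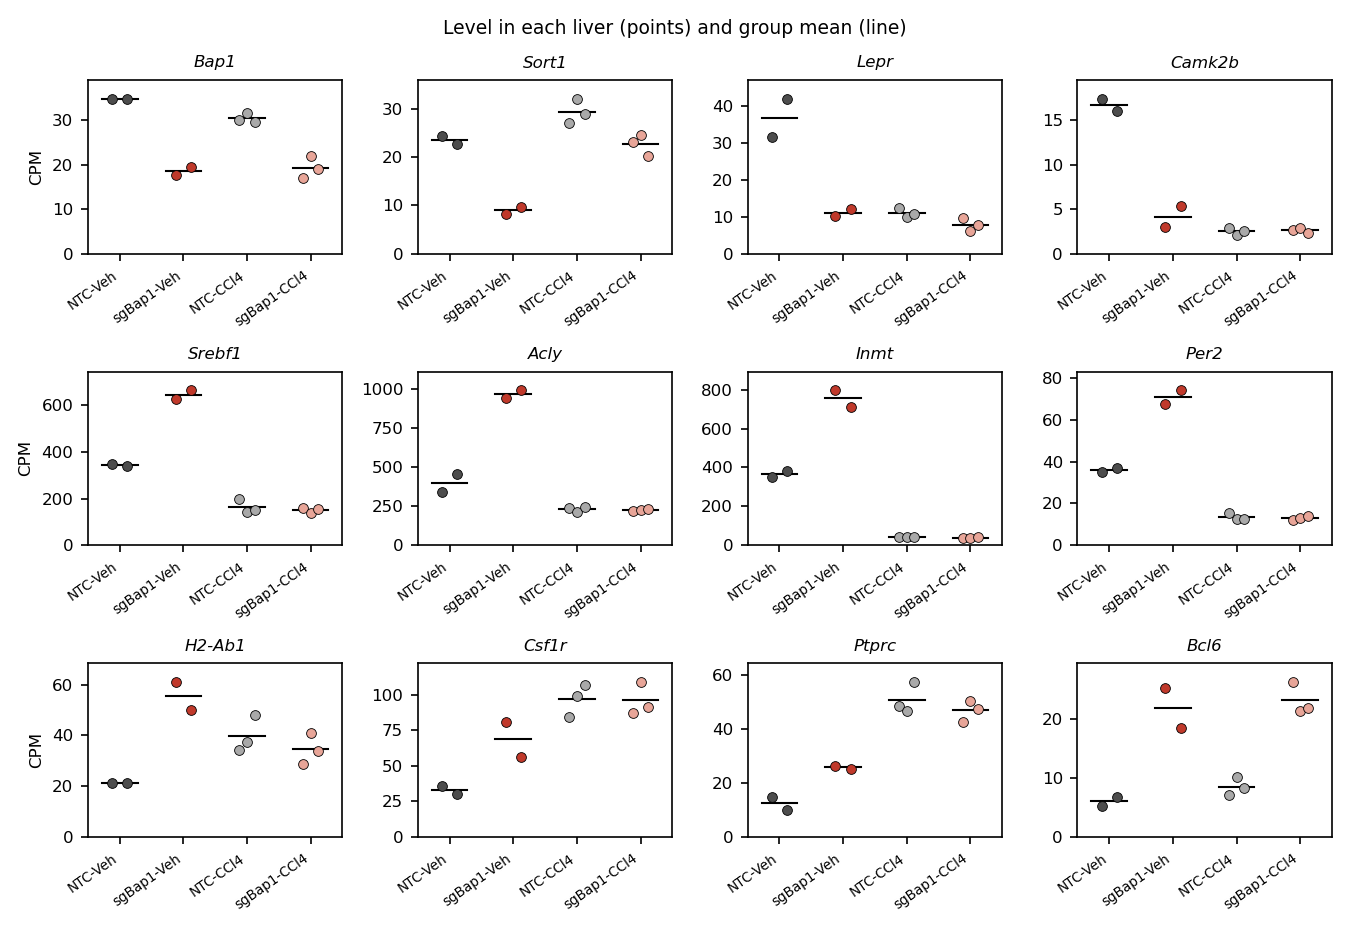
Levels in CPM (y axis, linear from 0) of 12 genes in each of the 10 livers by group, 1 point per liver. Bap1, Sort1, Lepr and Camk2b are lower and the other 8 genes higher in both sgBap1-Veh livers than in both NTC-Veh livers, whereas in the CCl4 livers only Bap1 and Bcl6 of these genes passed the test between the guides.

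Of the 47 higher genes, 31 encode proteins of leukocytes, antigen presentation or interferon-inducible families (grouped after their values were seen), and the MHC class II genes were the most coherent group. MHC class II molecules are pairs of chains on antigen-presenting cells that hold peptides for CD4+ T cells. The invariant chain Cd74 guards them on their way, H2-DM loads the peptide and cathepsin S (Ctss) cuts the invariant chain. Their promoters are known for a conserved module that ends in the Y box, an inverted CCAAT motif bound by NF-Y, next to elements through which the coactivator CIITA acts. The 150 bases before the start of 3 called genes of this group are shown to make that module visible, taken from RefSeq on GRCm38.p6, 5′ to 3′ on the strand of the gene. Capitals mark CCAAT or its reverse complement ATTGG.
H2-Aa: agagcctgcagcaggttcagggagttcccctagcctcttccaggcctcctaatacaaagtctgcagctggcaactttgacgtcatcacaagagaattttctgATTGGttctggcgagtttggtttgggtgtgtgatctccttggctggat
H2-Eb1: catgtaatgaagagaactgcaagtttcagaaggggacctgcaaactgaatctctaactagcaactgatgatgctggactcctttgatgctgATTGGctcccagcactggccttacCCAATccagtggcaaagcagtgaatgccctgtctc
Ctss: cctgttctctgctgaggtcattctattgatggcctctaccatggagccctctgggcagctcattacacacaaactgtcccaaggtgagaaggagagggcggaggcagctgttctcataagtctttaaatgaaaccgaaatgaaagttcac
The H2-Aa window covers chr17:34287824-34287973 on the minus strand and holds the motif in inverted form, starting 48 bases before the start site. That of H2-Eb1 covers chr17:34305717-34305866 on the plus strand and holds it inverted at 59 bases and in forward form at 35 bases before the start site. The Ctss window, chr3:95526636-95526785 on the plus strand, holds none. Searched on both strands, CCAAT occurred in this window in 7 of the 10 class II list genes with a promoter in the table, in 31.4% of the 11950 tested genes with one and in 24.5% of all 32851 promoters. H2-Aa and H2-Eb1 were the only called class II genes found to hold it. H2-DMa held none before either of its start sites, and no promoter was available for H2-Ab1 and Cd74.

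All 13 tested genes of the class II list had values above 0, where 53.4% of all tested genes did, with a median of 1.22 against 0.02 over all genes. Of these 6 were called, all higher, where 0.276% of all genes were called higher. With 1 liver left out the median ran from 1.17 to 1.38, but the calls fell to 0 without NTC-Veh replicate 2, sgBap1-Veh replicate 1 or sgBap1-Veh replicate 2, to 1 without NTC-Veh replicate 1 or NTC-CCl4 replicate 2, to 2 without sgBap1-CCl4 replicate 3 and to 4 without NTC-CCl4 replicate 1. H2-Aa measured 24.6 and 25.02 CPM in the NTC-Veh livers and 69.9 and 64.1 CPM in the sgBap1-Veh livers (1.43, SE 0.22, adjusted p = 0.0347). H2-Ab1, its partner chain, measured 21.2 and 21.3 against 61.2 and 50.2 CPM (1.39, SE 0.19, adjusted p = 0.0283). The NTC livers were nearly equal for both chains, while each sgBap1 liver held more than 2 times their level.

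H2-Eb1 measured 19.87 and 19.95 against 52.1 and 49.9 CPM, and Cd74, the most abundant of the group, 67.3 and 61.1 against 177 and 150 CPM. H2-DMa measured 3.57 and 3.71 against 8.83 and 8.23 CPM, and Ctss 29.6 and 24.7 against 60.3 and 50.2 CPM. For H2-Eb1 and H2-Ab1 both sgBap1-Veh livers also lay above every NTC-CCl4 liver (31.9 to 46.4 and 34.4 to 48.0 CPM), which was so for 5 of the 31 immune genes, while for 23 of them both sgBap1-Veh livers lay below every NTC-CCl4 liver. Ciita itself, the coactivator, measured 1.55 and 2.02 against 4.66 and 3.63 CPM and missed the threshold (1.22, SE 0.26, adjusted p = 0.0817), and it is named here after its values were seen. In a bulk sample, more cells of a type and more RNA per cell cannot be told apart, and this holds for every immune gene below.

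The called surface receptors of leukocytes numbered 12. Ptprc, the pan-leukocyte marker CD45, measured 14.9 and 9.98 CPM with NTC and 26.2 and 25.3 CPM with sgBap1 (1.05, adjusted p = 0.0418). Csf1r, the receptor on which macrophages depend for survival, measured 35.6 and 30.4 against 80.8 and 56.5 CPM (1.06, SE 0.18, adjusted p = 0.0487). Both showed more spread between the livers of 1 group than the class II chains did, but no overlap. Ms4a6c, a membrane protein of myeloid cells, measured 2.31 and 2.66 against 6.06 and 7.11 CPM, with the smallest adjusted p of the rise, 0.0150. Tlr1, which pairs with TLR2 to sense bacterial lipopeptides, measured 1.33 and 0.942 against 3.12 and 3.07 CPM.

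Sirpa, Fcer1g, Pirb, Cd72, Ms4a6b, Ly9, Clec4a3 and Klra2 completed this group with differences of 0.78 to 1.45. A further 9 called genes act inside or are secreted by leukocytes. Mpeg1, the pore-forming protein perforin-2 of phagocytes, measured 57.8 and 45.6 against 106 and 136 CPM (1.23, adjusted p = 0.0208), and Irf8, a transcription factor of the monocyte and dendritic cell lineages, 6.83 and 6.46 against 14.4 and 11.1 CPM. Fyb, Hcls1, Apbb1ip, Arhgap30, Gmip, Pld4 and Ear2 were the others, at 0.71 to 1.35. Of these genes, Ear2 shares 41.5%, Pirb 34.0%, Tlr1 15.4% and Ms4a6c 10.5% of its 50-base stretches with relatives, which makes their own values less certain.

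The marker lists of immune cells had higher values beside these genes, and their part in the class II and interferon results was not tested. All 13 Kupffer cell markers were above 0, with a median of 0.95. Of these 10 had an unadjusted p under 0.05, where 7.09% of all genes were higher, and Csf1r was called, where 0.276% were, and their summed level was 431 and 289 CPM in the NTC-Veh livers against 852 and 584 CPM in the sgBap1-Veh livers. Adgre1, which encodes F4/80, measured 11.1 and 8.17 against 23.7 and 19.2 CPM (adjusted p = 0.186). All 12 T cell, 11 natural killer cell, 15 B and plasma cell and 10 dendritic cell markers were likewise above 0, with medians of 1.02, 1.01, 0.92 and 0.81 and no call. The T cell median was 1.86 without NTC-Veh replicate 1 and 0.54 without NTC-Veh replicate 2, that of B and plasma cells 1.4 and 0.49 without the same livers and 0.50 without sgBap1-Veh replicate 1, and that of dendritic cells 0.42 without sgBap1-Veh replicate 1. The summed B and plasma cell level was 36.8 and 22.5 against 73.4 and 49 CPM, that of T cells 21.4 and 10.9 against 26.2 and 30.6 CPM, and that of natural killer cells 9.56 and 4.93 against 14.8 and 15 CPM. NTC-Veh replicate 2 had the lowest sum of the vehicle livers for Kupffer, T, natural killer and B and plasma cells.

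Monocyte and recruited macrophage markers were above 0 in 10 of 13 and neutrophil markers in 8 of 9, both with a median of 0.53 and no call, the neutrophil median running from 0.01 to 0.70 with 1 liver left out, and the summed neutrophil level overlapped between the groups (11.3 and 6.46 against 12.8 and 10.6 CPM). Sinusoidal endothelial markers had a median of 0.36, which was 0.03 without sgBap1-Veh replicate 1, 0.24 without NTC-Veh replicate 2, 0.55 without NTC-Veh replicate 1 and 0.62 without sgBap1-Veh replicate 2, and stellate cell markers one of 0.17. Cholangiocyte markers divided into 5 above and 5 below 0, with a median of 0.01. Of the 8 hepatocyte markers 7 were below 0 (median -0.21), with Ass1 at 0.41 as the exception. Their summed level, most of it Alb, was 0.82 times as high in the sgBap1-Veh as in the NTC-Veh livers.

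**Figure D3:**
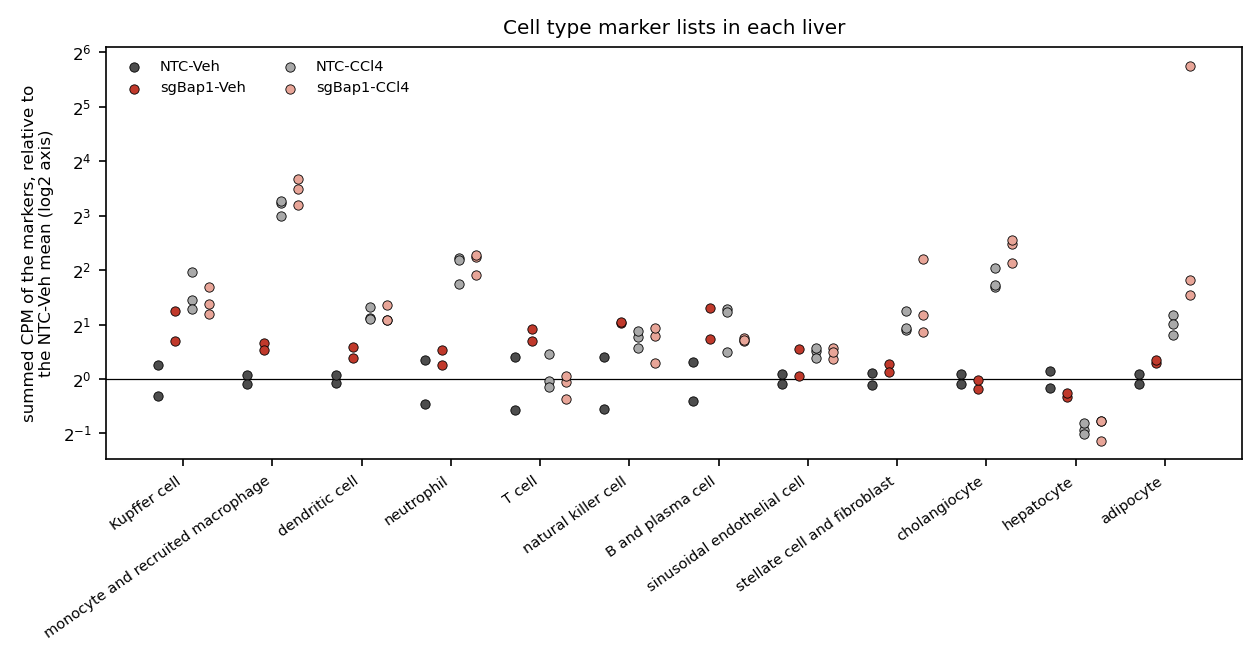
Summed CPM of 12 cell type marker lists in each of the 10 livers, relative to the mean of the NTC-Veh livers (log2 axis, 1 point per liver). The Kupffer, natural killer, T and B and plasma cell sums are above those of both NTC-Veh livers in both sgBap1-Veh livers. The same holds for the monocyte, dendritic, stellate and adipocyte sums, while the neutrophil, sinusoidal endothelial and cholangiocyte sums overlap. Of all single tested genes, 40.9% did not overlap between these groups. The hepatocyte sum, most of it Alb, is below.

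Interferon-gamma is the lymphocyte cytokine that induces CIITA, guanylate-binding proteins and the CXCR3 ligands. Among 24 tested genes that it induces, 23 were above 0, where 53.4% of all tested genes were, with a median of 0.90. Of these 2 were called, Gbp2b and Irf8, where 0.276% of all genes were called higher. With 1 liver left out the median ran from 0.73 to 1.10 and the calls from 0 to 5, and none was called without any 1 of the 4 vehicle livers. Gbp2b, a guanylate-binding GTPase, measured 2.7 and 1.66 CPM with NTC and 9.88 and 10.4 CPM with sgBap1 (2.21, SE 0.38, adjusted p = 0.0444). Its level in the CCl4 livers of either guide was 0.238 to 1.51 CPM, below every vehicle liver. Cxcl9 and Cxcl10, chemokines that draw CXCR3+ T cells, measured 11.3 and 6.37 against 33.2 and 45.9 CPM and 3.19 and 2.63 against 8.80 and 12.9 CPM. Neither passed, with adjusted p = 0.0826 and 0.104, nor did Tgtp2 (1.64, adjusted p = 0.0507).

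The 35 tested interferon-stimulated genes had 33 members above 0 and a median of 0.46. They held 1 call, where 0.276% of all genes were called higher. This was Oas1a, a sensor of double-stranded RNA (5.50 and 5.68 against 8.80 and 11.4 CPM, with 57.6% of its stretches shared with Oas1g and Oas1b). Apol9a, of an interferon-inducible apolipoprotein L family, rose from 68.4 and 62.9 to 120 and 120 CPM (0.87, with 16.5% of its stretches shared with Apol9b). Gm1966, a pseudogene that shares sequence with the interferon-inducible GTPase Gvin1 (17.5% of stretches shared with it and other genes), rose by 1.56 on the log2 scale. Irf7, a transcription factor of the interferon response, was at 0.70 without a call. Of 19 MHC class I genes 18 were above 0, at a median of 0.29, again without a call.

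Lists of innate sensors and chemotactic genes had values mostly above 0. Tlr1 was the single call, where 0.276% of all genes were called higher. The 17 inflammasome genes had 15 members above 0 and a median of 0.64, with Nlrp1b at 1.02, Aim2 at 0.96 and Casp1 at 0.92, whereas Nlrp12 was at -1.17 and none was called. In the Toll-like receptor list 15 of 19 genes were above 0 (median 0.49), and Tlr9 and Tlr4 stood at 1.85 and 0.95. Of 32 chemokine ligands 26 were above 0, with a median of 0.62 and no call, and of 18 receptors 15, among them Cxcr6 at 1.77 and Ccr2 at 0.70. Il7, a lymphocyte survival cytokine, measured 0.463 and 0.499 against 1.35 and 2.10 CPM (1.81, adjusted p = 0.0584). The 21 acute-phase proteins of the hepatocyte had a median of -0.05, and the 25 complement genes one of 0.10. Fn1, Msr1, Tgfbr2 and Stat6, which the study names, were at -0.24, 0.36, 0.19 and -0.02.

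Genes of fatty acid synthesis were also among the higher ones. SREBP1, made by Srebf1, is the factor that turns on fatty acid synthesis in the fed state, and ATP citrate lyase (Acly) makes the acetyl-CoA from which fatty acids are built. Srebf1 measured 350 and 340 CPM in the NTC-Veh livers and 627 and 665 CPM in the sgBap1-Veh livers (0.90, SE 0.16, adjusted p = 0.0487). Acly measured 341 and 457 against 947 and 994 CPM (1.28, SE 0.15, adjusted p = 0.0191). Both genes were far apart between the guides relative to the gap within a group.

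Of the 18 tested genes of the SREBP1 list 17 were above 0, where 53.4% of all tested genes were, with a median of 0.69. Of these 10 were higher at an unadjusted p under 0.05, where 7.09% of all genes were. Srebf1 and Acly were called, where 0.276% of all genes were called higher. Scd1, the desaturase that makes oleate, measured 3982 and 2722 against 10072 and 8925 CPM and missed the threshold (1.5, adjusted p = 0.0552). Elovl6, which elongates palmitate, measured 130 and 189 against 328 and 477 CPM (1.33, adjusted p = 0.1004), Pnpla3 2.31 and 1.41 against 16.9 and 10.2 CPM (2.87, adjusted p = 0.105) and Thrsp 409 and 353 against 1071 and 965 CPM (1.42, adjusted p = 0.642). Fasn, fatty acid synthase, named after its values were seen, measured 960 and 1095 against 2560 and 2352 CPM, again with no overlap (1.26, adjusted p = 0.507). For Thrsp and Fasn, sgBap1-CCl4 replicate 2, the library rich in adipocyte markers, stood far above its group (66.4 CPM against 6.95 and 9.54 for Thrsp), and that spread enters the test of the vehicle livers. Without that library the list had 6 calls (0.654% of all genes were then called higher), and with DESeq2 it had 7 (2.36%). It had none without NTC-Veh replicate 2, sgBap1-Veh replicate 1 or sgBap1-Veh replicate 2, 1 without NTC-Veh replicate 1, NTC-CCl4 replicate 2 or 3, or sgBap1-CCl4 replicate 1 or 3, and 2 without NTC-CCl4 replicate 1, while its median ran from 0.59 to 0.95.

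Pnpla5, a lipase of lipid droplets outside the list, had 3 and 2 counts in the NTC-Veh livers and 44 and 52 in the sgBap1-Veh livers. The 17 other lipid droplet genes had a median of 0.02 and no call. Cholesterol synthesis, the branch driven by SREBP2, was mostly below 0, in 19 of 24 genes with a median of -0.34 and no call, where the CCl4 livers had a median of -0.41. The PPARalpha list, which covers fatty acid oxidation in fasting, was below 0 in 23 of 25 genes with a median of -0.24, but it too held no call. Cyp4a14 measured 771 and 594 against 268 and 183 CPM (-1.60, adjusted p = 0.259), Cyp4a10 628 and 700 against 247 and 309 CPM (-1.26, adjusted p = 0.344) and Acot1 23.5 and 23.6 against 10.9 and 11.1 CPM (-1.09, adjusted p = 0.131). The insulin, FOXO1 and gluconeogenesis list divided into 10 above and 9 below 0, with Igfbp1 at -0.98 and Foxo1 at -0.09. The time of day and the feeding state at harvest are not given in the sources used here, and their part was not tested.

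**Figure D4:**
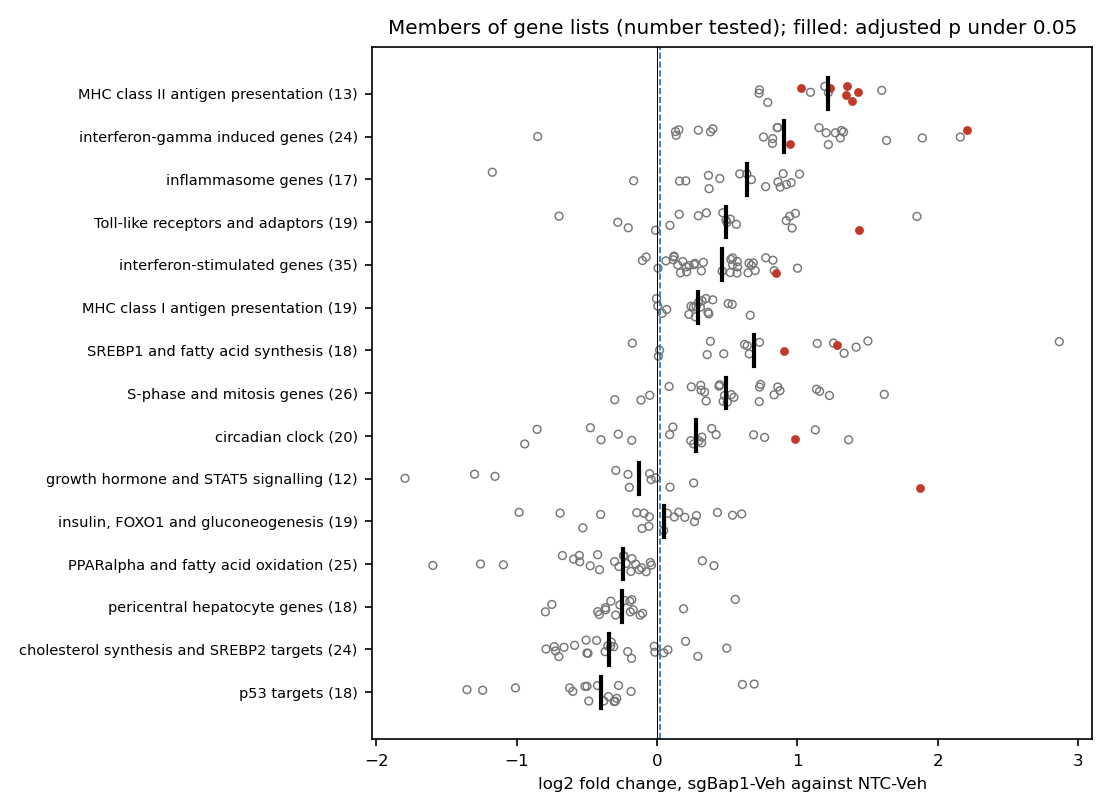
Log2 fold changes of sgBap1-Veh over NTC-Veh (x axis) of the tested members of 15 gene lists, 1 point per gene, filled where called, with a black bar at the list median and a dashed line at the median of all genes. The MHC class II and interferon-gamma medians (1.22 and 0.90) lie farthest above that line, followed by fatty acid synthesis at 0.69 and the inflammasome at 0.64.

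Per2, a repressor of the circadian clock, rose from 34.9 and 37.2 to 67.8 and 74.4 CPM (0.98, SE 0.12, adjusted p = 0.0208). Among the 20 clock genes it was the single call, where 0.276% of all genes were called higher. The list had 14 genes above and 6 below 0 and a median of 0.28. Bhlhe41, another repressor, was at 1.37 (adjusted p = 0.138) and Arntl, the activator BMAL1, at -0.94 (adjusted p = 0.342). Inmt, which methylates indoleamines, was among the most abundant called genes, at 351 and 384 against 798 and 712 CPM (1.04, SE 0.13, adjusted p = 0.0208). Ugt1a9, a glucuronosyltransferase whose last exons are common to its locus (62.0% of stretches shared), measured 84.7 and 61.7 against 190 and 179 CPM. Bag3, a co-chaperone induced by heat shock factor, rose from 27.2 and 26.7 to 52 and 41.7 CPM. It was the single call among 12 heat shock genes, which had a median of 0.22, where 0.276% of all genes were called higher.

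Bcl6, a transcriptional repressor that antagonises STAT5 on growth hormone targets in liver and also shapes lymphocytes, measured 5.17 and 6.82 CPM in the NTC-Veh livers and 25.3 and 18.5 CPM in the sgBap1-Veh livers. It rose by 1.87 on the log2 scale (SE 0.22, adjusted p = 0.0191), the largest rise after Gbp2b among called genes averaging 100 counts or more. Of the 12 growth hormone and STAT5 genes it was the single call, where 0.276% of all genes were called higher. In this list 9 genes were below 0. Socs2, Cish and Onecut1, targets of this hormone, measured 136 and 56.5 against 27.5 and 50.7 CPM, 69.5 and 28.2 against 17.8 and 26.1 CPM, and 110 and 26.8 against 20.2 and 19.2 CPM. Here NTC-Veh replicate 1 stood apart from the other 3 vehicle livers, and none of these genes passed (adjusted p = 0.402, 0.311 and 0.292).

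Genes with a known female bias in liver divided into 10 above and 8 below 0 (median 0.02). A1bg, one of them, measured 67.2 and 85.8 against 707 and 277 CPM, a difference of 2.69 that did not pass (adjusted p = 0.292). The 13 male-biased genes had 4 above and 9 below 0 and a median of -0.39, which ranged from -0.49 without sgBap1-Veh replicate 2 to 0.07 without sgBap1-Veh replicate 1. No gene of either list was called.

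Targets of p53, the stress-activated tumour suppressor, were below 0 in 16 of 18, with a median of -0.40 and no call. Cdkn1a, the cell cycle inhibitor p21, measured 46.5 and 21.9 against 10.4 and 16.5 CPM (-1.35, adjusted p = 0.123), Phlda3 was at -1.24 and Tnfrsf10b at -1.01 (adjusted p = 0.0893). Mdm2, which degrades p53, measured 50.8 and 46.2 against 36.6 and 39.7 CPM (-0.35, adjusted p = 0.144), and Gadd45a went the other way at 0.69. DESeq2 called 6 of the 18 lower, against 0.940% of all genes. Myc and Egr1, growth-related immediate early genes, were at -1.40 (adjusted p = 0.198) and -0.77, in a list of 19 with a median of 0.06.

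The 26 genes of S phase and mitosis had 23 members above 0, a median of 0.49 and no call, led by Cdc6 at 1.62, Ccnb1 at 1.23, Cdk1 at 1.16 and Mcm5 at 1.14 (adjusted p = 0.0600 for Mcm5). Which cells these transcripts come from was not tested. None of the lists in the rest of this paragraph held a call. Pericentral genes, expressed near the central vein, had 16 of 18 below 0 (median -0.25), and periportal genes 9 of 13 above 0 (median 0.27). Medians were -0.15 for hepatocyte transcription factors (19 tested), -0.11 for secreted hepatocyte products (22), -0.14 for liver-secreted hormones (20), -0.07 for bile acid genes (24), 0.08 for CAR and PXR genes (18), 0.11 for ER stress genes (18) and 0.19 for NRF2 genes (16). Enho, which encodes the liver hormone adropin, was at -1.65 (58.8 and 42.5 against 10.4 and 22 CPM, adjusted p = 0.144). Of 6 fetal liver genes 3 were above and 3 below 0, with a median of -0.56 that became 0.10 without NTC-Veh replicate 2 and -1.16 without sgBap1-Veh replicate 1, with H19 at -1.96 and Peg3 at -1.31, both without a call.

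The CCl4 livers gave the same contrast of guides in 6 other livers, with 56 genes called (0.329%), and 2 of the vehicle calls passed there in the same direction, Bap1 and Bcl6. Bcl6 measured 7.08 to 10.1 CPM in the NTC-CCl4 and 21.3 to 26.3 CPM in the sgBap1-CCl4 livers (1.45, adjusted p = 0.0188). Tmc7, a transmembrane channel-like protein, passed in the opposite direction, with 5.05 to 6.25 CPM in the NTC-CCl4 and 10.7 to 11.8 CPM in the sgBap1-CCl4 livers (0.94, adjusted p = 0.0256), against 5.58 and 4.21 with NTC and 2.48 and 2.21 with sgBap1 in the vehicle livers. Of the 47 genes higher in the vehicle livers, 17 were above and 30 below 0 in the CCl4 livers, with a median of -0.04 against 1.08. Of the 22 lower genes 16 were below 0 there, with a median of -0.15 against -1.10.

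By group, all 6 class II calls lay between -0.30 and 0.00 in the CCl4 livers, the 12 surface receptors between -0.19 and 0.18, and the 5 sorting and Golgi genes between -0.37 and -0.03. The list medians in the CCl4 livers were -0.21 for MHC class II, -0.46 for interferon-gamma genes, -0.11 for fatty acid synthesis and 0.27 for p53 targets. For Acly the CCl4 livers of either guide held 215 to 243 CPM, below every vehicle liver, and for Inmt 35 to 44.3 CPM. Csf1r and Mpeg1, by contrast, were higher in every CCl4 liver than in the sgBap1-Veh livers (84.7 to 109 and 258 to 321 CPM). Camk2b and Lepr measured 2.1 to 2.84 and 9.86 to 12.4 CPM in the NTC-CCl4 livers, below the sgBap1-Veh livers for Camk2b and overlapping them for Lepr.

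Whether a guide effect differed between vehicle and CCl4 was tested by the interaction, in which no gene passed (edgeR, smallest adjusted p = 0.0694) and 1764 (10.4%) had an unadjusted p under 0.05. Limma-voom called 0 and DESeq2 420 genes. An unadjusted p under 0.05 was found for 64 of the 69 vehicle calls, Bap1 and Bcl6 not among them. Since these genes were picked by the same vehicle livers that enter the interaction, this count is a description only. Tmc7, which had opposite signs, was among those nearest to the threshold (edgeR's interaction test, adjusted p = 0.0694).

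**Figure D5:**
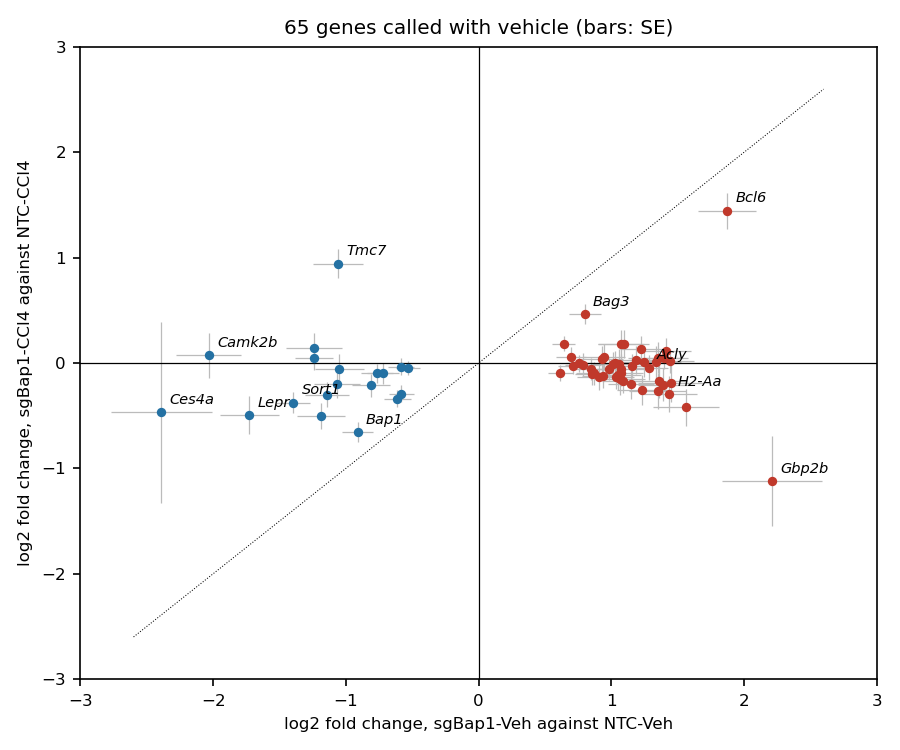
Log2 fold change of sgBap1 over NTC in the vehicle livers (x axis) and in the CCl4 livers (y axis), with SE bars, for the 65 called genes with more than 3 counts in a liver of each vehicle group. Bap1 and Bcl6 lie away from 0 on both axes, Tmc7 has opposite signs, and most of the other genes lie near 0 on the y axis.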

How the data were processed

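Stranded mRNA-seq profiled 10 livers, of which 2 were sgBap1-Veh, 2 were NTC-Veh and 6 had received CCl4. The authors aligned reads with STAR 2.7.6a to GRCm38 and estimated counts with Salmon 1.4.0 on GENCODE vM25, and the deposited table gives 55291 gene symbols with expected (estimated) counts that are not normalized. Since 9.22% of the values were not whole, they were rounded. Each liver had 33047900 to 52199900 counts, which limits low genes. The floors of 3 counts cover counting error only, while the SE comes from the quasi-likelihood fit, which includes the spread between livers.

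In R 4.3.3, edgeR 4.0.16 fitted 1 quasi-likelihood model of the 4 groups to all 10 livers (filterByExpr, TMM, robust = TRUE, the edgeR 4 method), and tests were two-sided with Benjamini-Hochberg adjustment over 17015 genes. An exact permutation test of 2 against 2 livers cannot go below p = 0.333. The steps were tested on simulated counts. Alternatives were DESeq2 size factors, library size alone, other filters, DESeq2 1.42.0, limma-voom (limma 3.58.1), a replicate block, the vehicle livers alone, each liver left out and, added after the data were seen, the edgeR 3 method.

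The comparison and the 53 gene lists were chosen with earlier results of these data known, and no set was tested. Named genes are Bap1, the 15 largest rises and falls among called genes averaging 100 counts or more without overlap, called list members, up to 4 members per list by size of change, and genes the study names, other called genes and stated exceptions aside. Lists overlap, with 40 of 870 genes in more than 1. GENCODE vM21 gave gene positions and the 50-base stretches that a gene shares with others, and RefSeq gave promoters. The labels name no batch. The guide sequence is not printed here, and the CPM of a gene is not scaled by length, so levels were compared within genes.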

Additional observations from a re-analysis of the deposited data

How the results depend on the processing

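Bap1 and the 68 other called genes kept their sign under every alternative that gave them a value. None of the 69 overlapped between the vehicle groups, so leaving out 1 liver could hardly turn a sign. The agreement follows from picking the genes in these same livers and is a description only. The medians of 18 of the 53 lists changed sign under at least 1 alternative. Among them were those of liver-secreted hormones (-0.14, or 0.02 without NTC-Veh replicate 1) and acute-phase proteins (-0.05, or 0.10 without the same liver). That of immediate early genes was 0.06, or -0.22 without sgBap1-Veh replicate 1. Other medians kept their sign but ranged widely with 1 liver left out, cholesterol synthesis from -0.59 to -0.11, the PPARalpha list from -0.40 to -0.12, the clock from 0.14 to 0.41 and interferon-stimulated genes from 0.25 to 0.49. The number of calls was less stable. Against 69 calls (47 higher, 22 lower), library size alone gave 32 (22 and 10), limma-voom 25 (18 and 7), the 4 vehicle livers alone 27 (18 and 9) and DESeq2's Wald test 562 (402 and 160, with 66 of the 69). No filter beyond 1 count in total gave 75 higher genes. With 1 liver left out the calls ranged from 0 to 150, the higher from 0 to 110 and the lower from 0 to 40. They numbered 26, 22 and 56 without NTC-CCl4 replicates 1, 2 and 3, and 29 and 34 without sgBap1-CCl4 replicates 1 and 3. Where a vehicle group keeps 1 liver, that liver is assumed to vary like the other groups. The cause of these shifts was not tested.

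The replicate block left 1 call, Sort1, with 0 higher and 1 lower. Replicate numbers share no stated animal, litter or day. The differences between replicates 1 and 2 of NTC-Veh and sgBap1-Veh correlated at -0.0437 across genes. With 1 such difference per group, this value cannot decide whether the numbers pair the livers. Bap1 was -0.91 under library size alone and -0.91 with the replicate block, no longer past the threshold (adjusted p = 0.0510 and 0.0744), and ranged from -0.99 to -0.84 with each liver left out, past the threshold only while all 4 vehicle livers were kept. Its adjusted p ran from 2.59e-07 to 0.120 over the alternatives. In the CCl4 livers, 56 calls became 94 without a filter, 502 with DESeq2, 24 with the block and 1 to 71 with a liver left out (1 without NTC-CCl4 replicate 1). The interaction gave 0 calls in edgeR, 2 under library size alone, 34 without a filter, 420 with DESeq2 and 0 to 7 with a liver left out. With 2 livers a side, a missed threshold does not show that a gene was alike in both groups.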
